A study of Homo sapiens with 20 samples.

Results

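The chaperonin genes are described here in HCT-116 cells (an established line from a human colorectal carcinoma) exposed to proteasome inhibitors after synchronisation in G2. They were chosen by gene symbol and comprised 10 of the 39918 genes with an Ensembl identifier in the count table: the 8 subunit genes of the cytosolic chaperonin TRiC (TCP1, CCT2, CCT3, CCT4, CCT5, CCT6A, CCT7 and CCT8) and the mitochondrial chaperonin genes HSPD1, which encodes HSP60, and HSPE1, which encodes HSP10. All 10 passed the filter on low counts. Ribosomal RNA-depleted total RNA was sequenced from 20 samples in 5 groups of 4. The MG132 plus alpha-amanitin group received 20 µM MG132, a proteasome inhibitor, together with 50 µg/ml alpha-amanitin, an inhibitor of RNA polymerase II, for 3 h. The MG132 group received 20 µM MG132 alone for 3 h, and the bortezomib group 100 nM of bortezomib, a clinically used proteasome inhibitor, for 3 h. The G2 group received no drug. These 4 groups had all been held in 2 mM thymidine for 16 h and released for 7 h beforehand, so that each drug was added to synchronised cells. The asynchronous group had neither the thymidine block nor a drug. G2 samples were labelled 0 h and drug samples 3 h, so that drug and the 3 h of further culture cannot be told apart in any comparison with G2. All samples came from 1 cell line. The labels do not say whether the 4 replicates of a group were grown separately, and p-values then reflect only the spread among these samples, which could be technical.

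Chaperonins are barrel-shaped complexes that enclose an unfolded protein and release it folded, using ATP. TRiC is built from different but related subunits, is located in the cytosol, and is best known for folding actin, tubulin and WD40-repeat proteins, many of which it receives from the prefoldin complex. HSP60 and its lid HSP10 fold proteins imported into the mitochondrial matrix. HSF1, the heat shock factor activated when unfolded proteins accumulate, binds heat shock elements, which are alternating GAA and TTC units, and HSPD1 and HSPE1 are known HSF1 targets that lie head to head.

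Most of the region between HSPD1 and HSPE1 is shown because the 2 mitochondrial chaperonin genes share it. It holds the longest heat shock element found among the members. The TCP1 window is given for comparison. Promoter windows of 300 bases, 250 before and 50 after an annotated start site, were available for 9 of the 10 members in 12 windows (RefSeq, GRCh38.p14). CCT6A had no window, and the bases between the HSPD1 and HSPE1 windows below were neither shown nor searched. Capitals mark the heat shock element.
HSPD1, second window, chr2:197499791-197500090, minus strand: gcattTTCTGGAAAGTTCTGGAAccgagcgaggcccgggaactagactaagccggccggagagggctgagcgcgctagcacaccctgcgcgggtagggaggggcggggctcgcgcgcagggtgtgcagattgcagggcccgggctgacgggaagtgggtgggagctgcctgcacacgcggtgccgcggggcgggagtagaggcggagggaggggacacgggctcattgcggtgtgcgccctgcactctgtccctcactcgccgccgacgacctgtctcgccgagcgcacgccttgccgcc
HSPE1, chr2:197500129-197500428, plus strand: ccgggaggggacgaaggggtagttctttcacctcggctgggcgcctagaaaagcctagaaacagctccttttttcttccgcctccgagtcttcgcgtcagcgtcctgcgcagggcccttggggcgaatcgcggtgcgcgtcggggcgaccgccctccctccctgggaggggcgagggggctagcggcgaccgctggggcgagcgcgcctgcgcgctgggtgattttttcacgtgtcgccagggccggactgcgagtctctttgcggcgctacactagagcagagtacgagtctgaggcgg
TCP1, chr6:159789553-159789852, minus strand, with a shorter match of 2 units in capitals: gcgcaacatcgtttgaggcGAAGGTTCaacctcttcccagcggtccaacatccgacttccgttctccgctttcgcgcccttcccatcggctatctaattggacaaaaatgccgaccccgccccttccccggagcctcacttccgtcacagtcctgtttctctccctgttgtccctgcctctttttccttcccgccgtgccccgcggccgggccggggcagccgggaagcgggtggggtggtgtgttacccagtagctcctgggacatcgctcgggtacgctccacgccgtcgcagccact

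The HSPD1 element has 4 alternating units and matched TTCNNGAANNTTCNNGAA, where N is any base, at chr2:197500068-197500085. It lies 228 to 245 bases upstream of this HSPD1 start site and 294 to 311 bases upstream of the HSPE1 start site. Motifs were searched on both strands, and the matches of different lengths overlap each other in HSPD1. The 4-unit motif was present in 0.0256% of all 35116 promoter windows and the 3-unit motif GAANNTTCNNGAA, on either strand, in 0.49%. HSPD1 was the only member whose windows held either. Besides HSPD1, of the 2-unit motifs, GAANNTTC, present in 6.77% of all windows, matched in TCP1 and CCT2, and TTCNNGAA, present in 7.74%, matched in CCT4. A match of letters is a description and was not tested as a binding site.

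Library totals ranged from 26797395 to 39710457 counts, and the members' own counts from 3263 for CCT8 to 85034 for HSPD1 in a single library, so counting error was small beside the spread between replicates. Of 8 markers of colon epithelium, 7 passed the filter and KRT8 had a median of 2004 counts scaled to library size (CPM), whereas VIL1 was near 0. Of 7 fibroblast markers only COL1A1 and of 6 leukocyte markers only ITGAM passed, with medians of 7.75 and 0.311 CPM. All levels below are CPM with library sizes scaled by the trimmed mean of M-values (TMM). Adjusted p-values are from the quasi-likelihood test of edgeR with Benjamini-Hochberg adjustment over 18959 genes, and a gene counts as called where this is under 0.05. In RNA from bulk cultures, fewer cells of a type and less RNA per cell cannot be told apart.

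HSPD1 was the most abundant chaperonin transcript per kilobase of exon in the bortezomib group, at 448 ± 40.6 CPM per kilobase, and in the G2 group, at 269 ± 66.4 (SD, n = 4 each). CCT3 was next, at 204 ± 21.6 and 229.8 ± 46.3 CPM per kilobase in the same groups, which in G2 differs from HSPD1 by less than the HSPD1 spread. HSPE1 had 97.0 ± 15.5 and 99.8 ± 19.1 CPM per kilobase of exon and was the lowest in both by this length. Per kilobase of the main transcript it was the lowest in neither, at 202 ± 32.3 in bortezomib and 208 ± 39.7 in G2. By that length CCT4 had 180 ± 22.5 and 185 ± 45.3, and CCT5 181 ± 24.1 and 168 ± 30.0, in the same groups. Per kilobase of exon in G2 the other 7 TRiC genes lay between 106 for CCT5 and 172 for CCT7. Neighbours in that order differed by less than their spread. HSPE1 shares exon bases with other genes, as given below, and the part of this in its level was not tested.

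A property of 4 libraries, its origin not tested, moved with the members' levels and is given first. In each library the deviations of tested genes with known GC content from their means over the 20 libraries were fitted on GC content and log2 exon length. The slope given is that on GC content. The slope was largest in size in MG132 replicate 4 at 0.62 log2 units per 10 percentage points, in MG132 replicate 2 at -0.36, in G2 replicate 2 at 0.30 and in asynchronous replicate 3 at 0.43. The other 16 libraries lay between -0.22 and 0.17. The chaperonin transcripts differ in GC content: CCT3 has 51.2% and CCT7 51.8% in their main transcripts, HSPE1 50.2%, and the other 7 members 43.1% to 44.7%. In MG132 replicate 4, CCT8 had 110.1 CPM, CCT6A 136 and HSPD1 364, the lowest of all 20 libraries for each, while CCT3 had 1292 and CCT7 921, the highest of all 20. The ratio of CCT3 to CCT8 was 11.7 in that library, 4.91 in G2 replicate 2 and 5.85 in asynchronous replicate 3, but 1.19 in MG132 replicate 2, the library with the opposite slope. It was 1.498 to 2.73 in the other 16 libraries, with the highest of these in MG132 plus alpha-amanitin replicate 4. Results are therefore given with all libraries and without these 4.

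**Figure D1:**
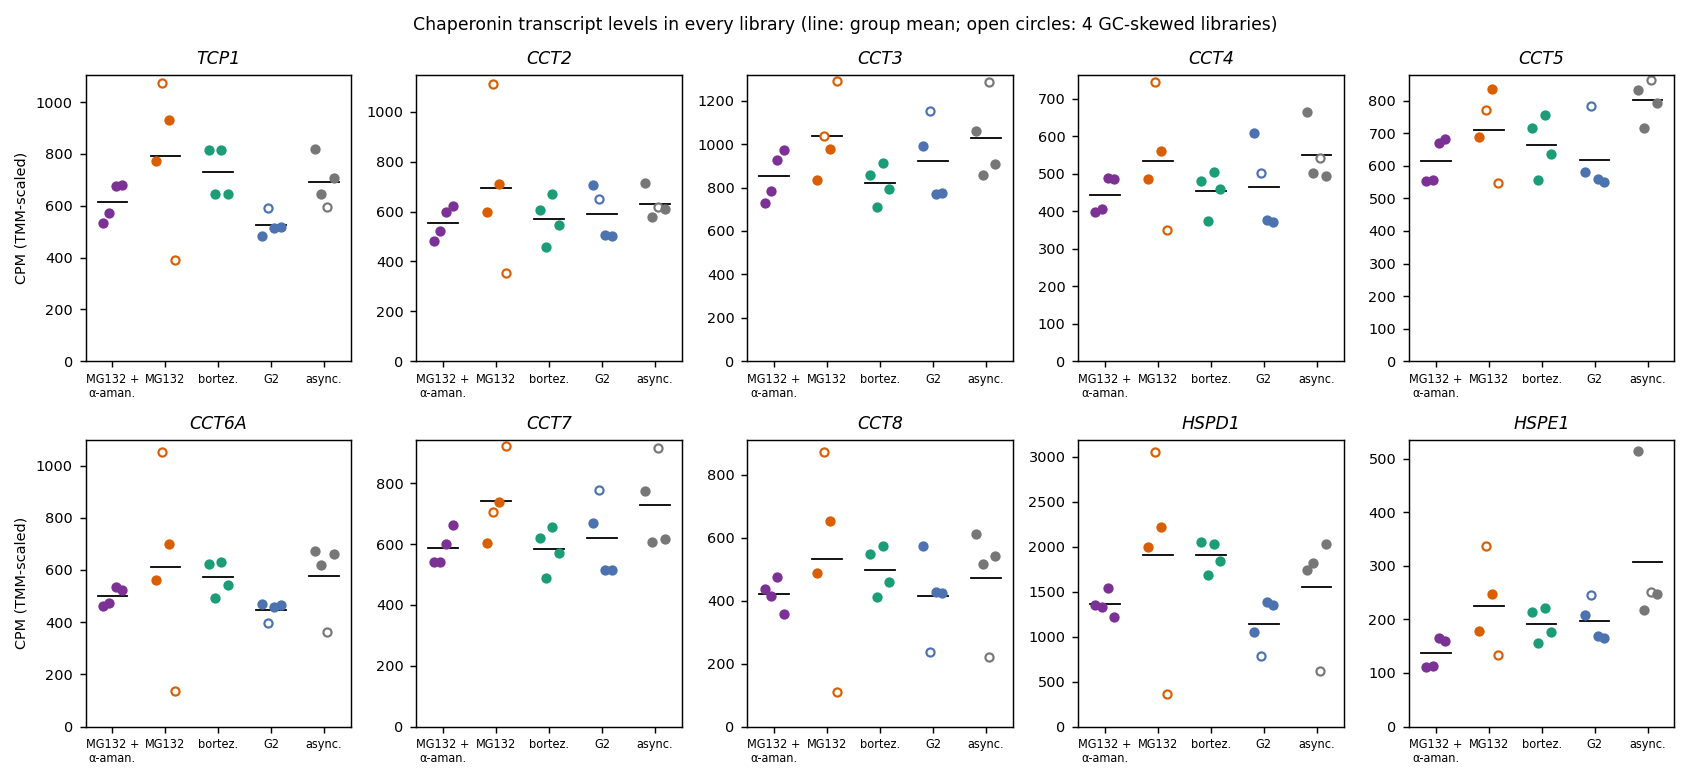
TMM-scaled CPM of each chaperonin gene in the 20 libraries, by group, with lines at group means and open circles for the 4 libraries with the steepest GC slopes. The open circles hold the lowest CCT6A, CCT8 and HSPD1 values and the highest CCT3 and CCT7 values.

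**Figure D2:**
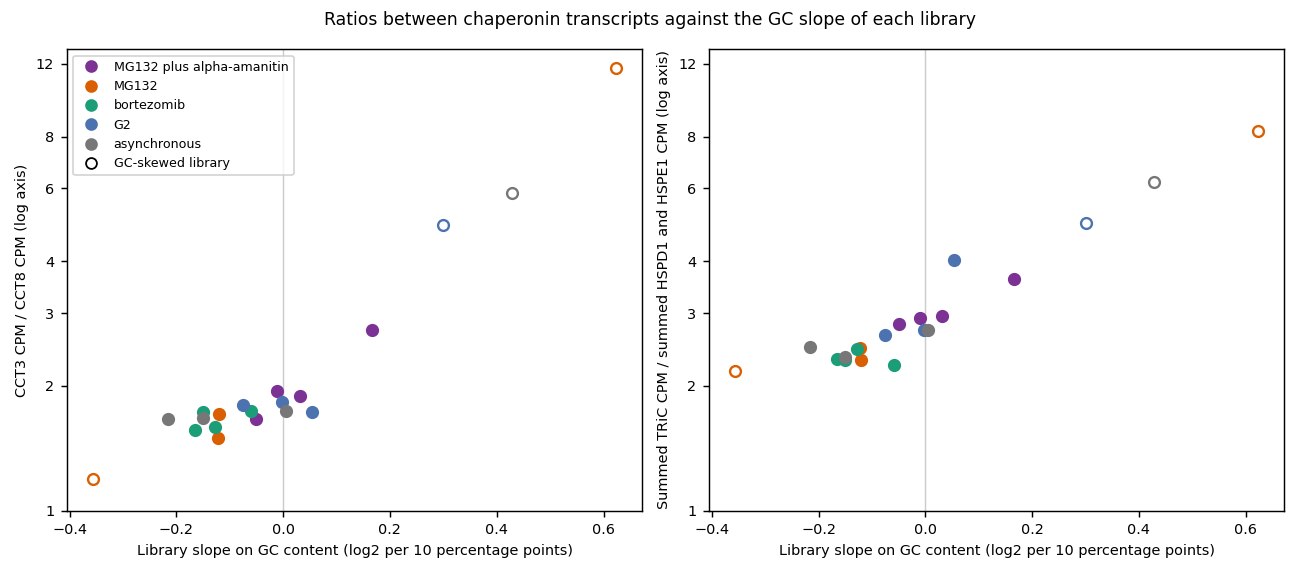
Ratio of CCT3 to CCT8 (left) and of summed TRiC to summed HSPD1 and HSPE1 levels (right) on log axes against each library's slope on GC content, 1 point per library. Both ratios are highest in the library with the steepest positive slope and lowest in the one with the steepest negative slope.

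MG132 against G2 asks what proteasome inhibition did to the chaperonin genes. None of the 10 was called with all 20 libraries, where 2.08% of 18959 genes were called. Their log2 fold changes were all positive, from 0.17 for CCT3 to 0.74 for HSPD1, with a median of 0.25 beside -0.03 over all genes. Without MG132 replicate 2, 8 of 10 were positive and the median was 0.11. The smallest p-values were those of TCP1, the alpha subunit of TRiC, and of HSPD1. TCP1 had 773, 1072, 931 and 391 CPM in MG132 libraries 1 to 4, against 483, 590.3, 513 and 518 CPM in G2 libraries 1 to 4. MG132 replicates 1 to 3 lay above every G2 library and replicate 4 below every one, so the groups overlapped. The log2 fold change was 0.59 ± 0.23 (SE, unadjusted p = 0.0198, edgeR adjusted p = 0.265). HSPD1 had 1995, 3052, 2221 and 364 CPM in MG132 libraries, against 1055, 784, 1386 and 1348 CPM in G2 libraries, with the same replicate 4 alone below G2. Its log2 fold change was 0.74 ± 0.42 (edgeR adjusted p = 0.563, 95% interval -0.16 to 1.63).

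Leaving out MG132 replicate 4 alone gave 2 of 10 members called instead of 0, in a fit that called 3.47% of 19374 genes. TCP1 then rose by 0.82 ± 0.18 on the log2 scale (edgeR adjusted p = 0.0142), and HSPD1 by 1.08 ± 0.30 (edgeR adjusted p = 0.0477). That fit keeps MG132 replicate 2, which has the opposite GC slope and the highest TCP1 and HSPD1 values of all 20 libraries. Without all 4 skewed libraries, 2 MG132 and 3 G2 libraries remained and neither gene was called (1.64% of genes were), at 0.73 ± 0.19 for TCP1 (edgeR adjusted p = 0.0685) and 0.71 ± 0.19 for HSPD1 (edgeR adjusted p = 0.0702). In these libraries TCP1, CCT5, CCT6A and HSPD1 lay wholly above G2, 4 of 10 members, beside 16.4% of all genes. CCT6A, the zeta subunit, had 562, 1053, 699 and 136 CPM in MG132 libraries, against 469, 396, 457 and 465 CPM in G2 libraries. Its 2 extreme values are those of MG132 replicates 2 and 4, and replicates 1 and 3 lay above every G2 library. CCT5, the epsilon subunit, had 689, 770.5, 836 and 546 CPM in MG132 libraries, against 579.9, 782, 558 and 551 CPM in G2 libraries, overlapping through MG132 replicate 4 and G2 replicate 2.

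The other TRiC subunits and HSPE1 showed smaller fold changes than TCP1 and HSPD1. Without the 4 skewed libraries, CCT2 (beta), CCT3 (gamma), CCT4 (delta), CCT7 (eta), CCT8 (theta) and HSPE1 had log2 fold changes between 0.07 and 0.24, none with an edgeR adjusted p below 0.678, and all overlapped G2. HSPE1 had 179, 337, 248 and 134 CPM in MG132 libraries, against 208, 246, 169 and 166 CPM in G2 libraries. Its interval of -0.43 to 0.81 on the log2 scale contains the HSPD1 estimate, and the difference between HSPD1 and HSPE1 was not tested. The sign of these small values depended on the scaling. Scaling to the 13 mitochondrial mRNAs, which put the median of all genes at -0.29, left 5 members positive and 5 negative around a median of -0.02, still 0.27 above the median of all genes.

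Bortezomib, a boronate where MG132 is a peptide aldehyde, gave more uniform libraries than MG132. No bortezomib library was among the 4 skewed ones, and the coefficient of variation over the 4 replicates was 9.05% for HSPD1 to 16.0% for HSPE1, beside 17.6% for CCT5 to 61.8% for CCT6A in the MG132 group. None of the 10 members was called in bortezomib against G2, where 1.15% of genes were called, and 0 had an unadjusted p under 0.05 by edgeR or limma-voom and 1, TCP1, by DESeq2. Of the 10, 5 had positive and 5 negative log2 fold changes, with a median of 0.04. The positive ones numbered 7 without the 4 skewed libraries and 7 when GC content and length were offset, at medians of 0.04 and 0.12. Without bortezomib replicate 2 they numbered 8, at a median of 0.12. They numbered 9 with the undocumented letter in the sample codes as a block, at a median of 0.27. Bortezomib replicates 2 and 4 carry letters that no other library has, so in that fit the contrast rests on bortezomib replicates 1 and 3. However, TCP1, CCT6A and HSPD1 were higher in every bortezomib library than in any G2 library, 3 of 10 members beside 7.66% of all genes. The GC slopes were -0.17 to -0.06 in bortezomib libraries, against -0.08 to 0.30 in G2 libraries, and the part of this difference in the levels was not tested. With the GC and length offset the log2 fold changes were 0.70 for HSPD1, 0.38 for TCP1 and 0.33 for CCT6A, none called. HSPD1 had 2053, 1687, 2031 and 1844 CPM in bortezomib libraries, against 1055, 784, 1386 and 1348 CPM in G2 libraries. The lowest bortezomib value exceeded the highest G2 value. The log2 fold change was 0.74 ± 0.42 (edgeR adjusted p = 0.435) and 0.56 ± 0.16 without the skewed libraries (edgeR adjusted p = 0.0822, 2.12% of genes called). TCP1 had 814, 645, 815 and 647 CPM in bortezomib libraries, all above G2. Its log2 fold change was 0.47 ± 0.23 (edgeR adjusted p = 0.36). CCT6A had 622, 493, 629.9 and 542 CPM in bortezomib libraries, also all above G2, with a log2 fold change of 0.36 ± 0.36 (edgeR adjusted p = 0.637).

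The remaining members overlapped G2. CCT2 and CCT4 were at -0.05 ± 0.25 and -0.03 ± 0.22 on the log2 scale, and CCT3 at -0.17 ± 0.20. HSPE1 had 214, 156, 221 and 176 CPM in bortezomib libraries, overlapping G2, with a log2 fold change of -0.04 ± 0.29 and a 95% interval of -0.66 to 0.58. Since both inhibitors were set against the same G2 libraries, their fold changes are not independent. Set against each other, MG132 and bortezomib differed in 0 of 10 members, where 0.0369% of genes were called (unadjusted p under 0.05 in 0 members by edgeR). All 10 log2 differences, MG132 over bortezomib, were positive, with a median of 0.17 beside -0.01 over all genes. The largest was that of CCT7, at 0.35 ± 0.20 (edgeR adjusted p = 0.983). Without MG132 replicate 2, 4 of 10 were positive and the median was -0.04, as over all genes. HSPD1 averaged 1908 ± 1125 CPM in MG132 libraries and 1904 ± 172 CPM in bortezomib libraries (SD, n = 4 each), a log2 difference of 0.0031 with an interval of -0.89 to 0.89. TCP1 differed by 0.12, with an interval of -0.38 to 0.61. These intervals still allow differences of more than 1.5-fold for HSPD1 in either direction.

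**Figure D3:**
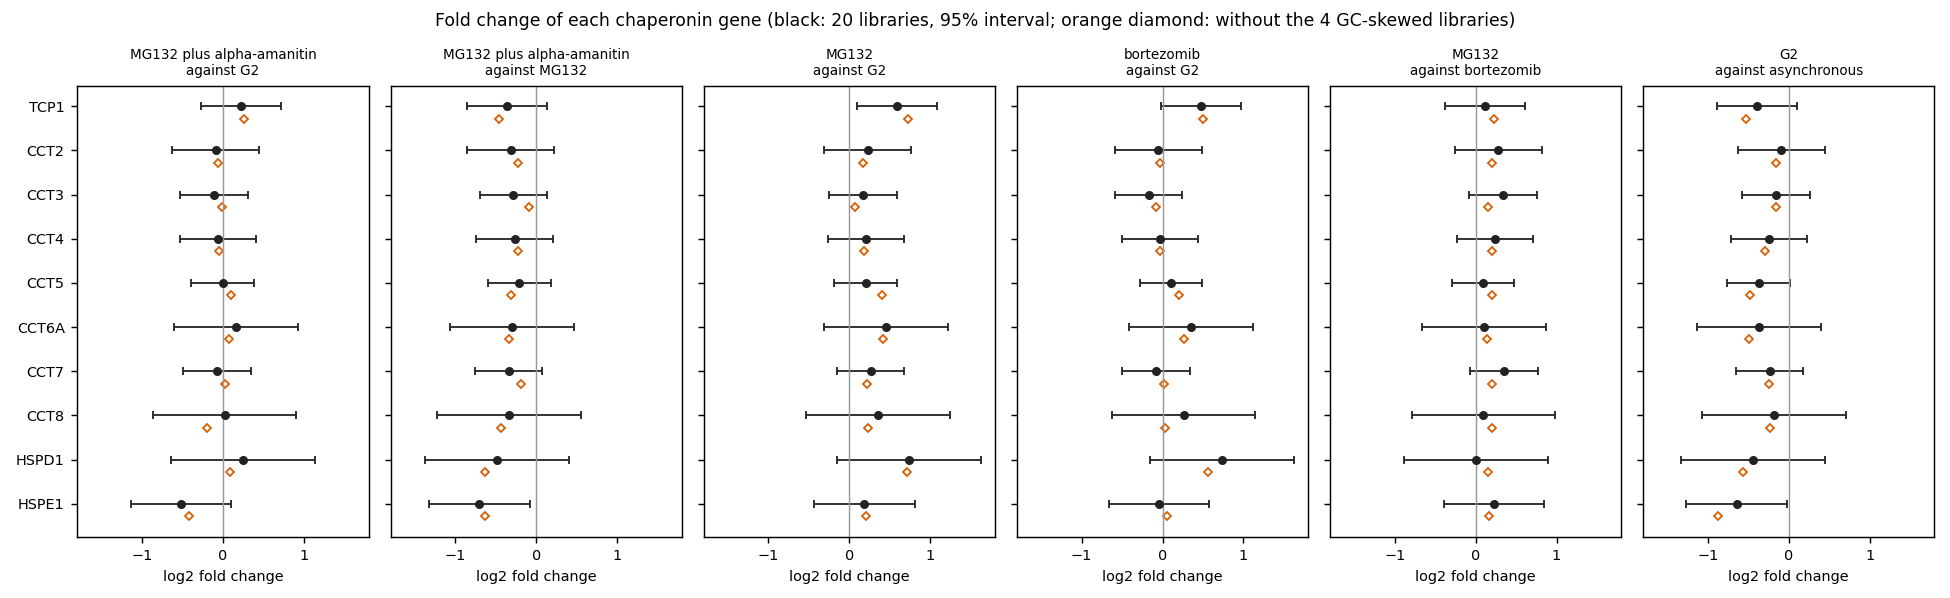
Log2 fold change of each chaperonin gene in the 6 comparisons, the group named first over the group named second, with 95% intervals from all 20 libraries (black) and estimates without the 4 skewed libraries (orange diamonds). TCP1 in MG132 against G2 is the only member whose interval excludes 0 in a comparison of a proteasome inhibitor with G2.

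Alpha-amanitin was added with MG132 to ask which transcript levels depended on transcription during the 3 h. None of the 10 members was called in MG132 plus alpha-amanitin against MG132, where 2.19% of genes were called. All 10 log2 fold changes were negative, from -0.71 for HSPE1 to -0.21 for CCT5, with a median of -0.33 beside 0.02 over all genes. Without MG132 replicate 2, 7 of 10 were negative and the median was -0.17, and by limma-voom 9 of 10 were. This comparison shares the MG132 libraries with MG132 against G2, so its opposite signs are no second observation. HSPE1 had 112, 114, 166 and 159.5 CPM with MG132 plus alpha-amanitin, against 179, 337, 248 and 134 CPM with MG132. The groups overlapped only through MG132 replicate 4, and the log2 fold change was -0.71 ± 0.29 (unadjusted p = 0.0255, edgeR adjusted p = 0.295). HSPD1 had 1350.5, 1331, 1538 and 1219 CPM with MG132 plus alpha-amanitin, below MG132 replicates 1 to 3 and above replicate 4. Its log2 fold change was -0.49 ± 0.42 (edgeR adjusted p = 0.712) and -0.63 ± 0.18 without the skewed libraries (edgeR adjusted p = 0.0809, 2.12% of genes called). TCP1 had 534, 571, 677 and 680.5 CPM with MG132 plus alpha-amanitin, likewise below MG132 replicates 1 to 3. Without the skewed libraries TCP1, CCT5, CCT6A, CCT8, HSPD1 and HSPE1 lay wholly below MG132, 6 of 10 members beside 16.8% of all genes, with 4 libraries against 2.

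Set against G2, the combination gave small fold changes for most chaperonin genes. None of the 10 members was called, where 3.35% of genes were called, and 0 had an unadjusted p under 0.05. Without the skewed libraries 0 were called as well, where 4.4% of genes were. Of the 10, 4 log2 fold changes were positive and 6 negative, with a median of -0.04. By total library size 6 were positive, and without the skewed libraries 5. CCT5 averaged 615 ± 70.7 CPM with MG132 plus alpha-amanitin and 618 ± 110.3 CPM in G2 (SD, n = 4 each), with a 95% interval of -0.39 to 0.38 for the log2 fold change. HSPE1 alone was lower in every library of the combination than in any G2 library, by a margin far below the spread between replicates, which held for 7.24% of all genes, at a log2 fold change of -0.52 ± 0.29 (edgeR adjusted p = 0.456). With scaling to the 13 mitochondrial mRNAs, which put the median of all genes at -0.41, all 10 members were negative, at a median of -0.45.

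G2 against asynchronous describes the synchronised starting point itself. None of the 10 members was called, where 2.09% of genes were called. All 10 log2 fold changes were negative, with a median of -0.31 beside -0.04 over all genes. The drug groups were set against these same G2 libraries, so opposite signs there are no second observation. TCP1 had 483, 590.3, 513 and 518 CPM in G2 libraries, against 819, 644, 597 and 706 CPM in asynchronous libraries. It was the only member with every G2 library below every asynchronous library, which held for 1.89% of all genes, and its log2 fold change was -0.39 ± 0.23 (edgeR adjusted p = 0.525). HSPE1 had 208, 246, 169 and 166 CPM in G2 libraries, against 515, 218, 251 and 248 CPM in asynchronous libraries, where replicate 1 stood far above the other 3. Its log2 fold change was -0.64 ± 0.29 (unadjusted p = 0.0396, edgeR adjusted p = 0.341). HSPD1 had 1741, 1815, 621 and 2026 CPM in asynchronous libraries, and replicate 3, a skewed library, was the low one. Without the skewed libraries TCP1, CCT5, CCT6A, HSPD1 and HSPE1 lay wholly below asynchronous cells, 5 of 10 members beside 8.25% of all genes, and their edgeR adjusted p-values ranged from 0.0734 for HSPD1 to 0.118 for CCT5, where 4.37% of genes were called. With the sample-code letter as a block 2 of the 10 members were positive, and by total library size 1, with a median of -0.15 beside 0.12 over all genes.

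The balance between the cytosolic and mitochondrial chaperonins was compared within each library, where the scaling of library sizes cancels. Summed TRiC levels divided by summed HSPD1 and HSPE1 levels gave 2.83, 2.95, 2.92 and 3.62 with MG132 plus alpha-amanitin. The ratios were 2.32, 2.18, 2.48 and 8.24 with MG132, and 2.33, 2.25, 2.45 and 2.30 with bortezomib. They were 4.03, 4.94, 2.65 and 2.72 in G2 cells and 2.73, 2.48, 6.20 and 2.34 in asynchronous cells. All 4 bortezomib libraries lay below all 4 G2 libraries, and so did MG132 replicates 1 to 3, whereas MG132 replicate 4 had the highest ratio of all. The 4 highest ratios included the 3 libraries with the steepest positive GC slopes, and the remaining one was G2 replicate 1, with a slope of 0.05. Over all 20 libraries the log2 ratio had a Pearson correlation of 0.96 with the GC slope, and of 0.83 over the 16 others, as a description of libraries that also share their group. The bortezomib slopes were all negative and those of G2 mostly higher, -0.17 to -0.06 and -0.08 to 0.30, so that this separation moved with the slope, and the part of the slope in it was not tested. This ratio sums over members and was given no test. HSPD1 over HSPE1 was 9.61, 10.8, 9.19 and 10.5 in bortezomib libraries, against 5.07, 3.19, 8.20 and 8.13 in G2 libraries and so all above G2. MG132 replicates 1 to 3 also lay above G2, at 11.1, 9.06 and 8.96, and MG132 replicate 4 below, at 2.72. With MG132 plus alpha-amanitin the ratio was 12.1, 11.7, 9.29 and 7.64, overlapping G2. The HSPD1 transcript has 44.2% GC and that of HSPE1 50.2%, and this ratio was lowest of the 20 libraries in the 3 with the steepest positive slopes, at 2.48, 2.72 and 3.19, with the same order of bortezomib and G2 slopes as above. Among the TRiC subunits, TCP1, with 43.8% GC, made up 12.2% ± 0.66 of the summed TRiC level per kilobase in bortezomib cells. In G2 cells it made up 9.34% ± 1.25 (SD, n = 4 each). Its share was 11.3% to 12.7% in bortezomib libraries and 7.52% to 10.2% in G2 libraries. MG132 plus alpha-amanitin libraries, at 10.5% to 11.1%, also all lay above G2, whereas MG132 libraries, at 7.75% to 12.5%, overlapped G2. TCP1 was not alone in such a shift between bortezomib and G2 libraries. The CCT6A share also lay wholly above G2, at 11.8% to 12.3% against 8.08% to 11.6%. The shares of the GC-richer CCT3 and CCT7 lay wholly below G2. That of CCT3 was 16.3% to 17.2% against 18.6% to 22.8%, and that of CCT7 13.2% to 13.7% against 13.9% to 17.2%.

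**Figure D4:**
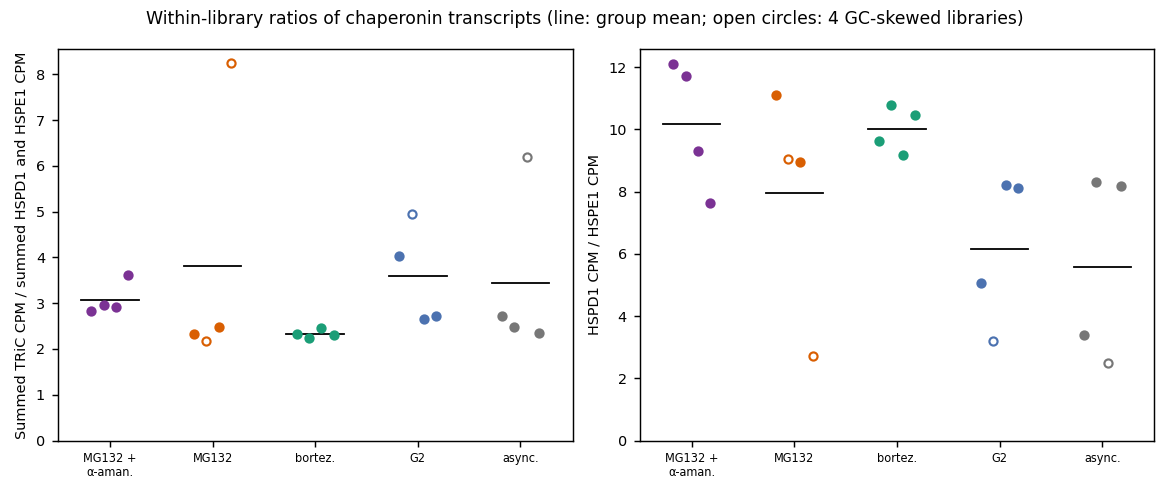
Summed TRiC over summed HSPD1 and HSPE1 levels (left) and HSPD1 over HSPE1 (right) in each library, by group, with lines at group means and open circles for the 4 skewed libraries. Bortezomib libraries sit between 2.25 and 2.45 on the left, below every G2 library.

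Small RNA genes inside TCP1 passed the test in the amanitin comparison although the host gene did not. SNORA20 and SNORA29, H/ACA-box RNAs that guide pseudouridylation, lie inside TCP1 on its strand. SNORA20 had 0.329, 0.594, 0.586 and 0.635 CPM with MG132 plus alpha-amanitin, against 1.19, 3.16, 1.28 and 1.79 CPM with MG132, from counts of 12, 19, 18 and 23 and of 32, 80, 49 and 53 in the same order of groups. SNORA29 had 0.137, 0.344, 0.619 and 0.469 CPM with MG132 plus alpha-amanitin, against 1.60, 2.37, 1.175 and 1.08 CPM with MG132, from counts of 5, 11, 19 and 17 and of 43, 60, 45 and 32. Neither overlapped between the groups, and 4.01% of all genes were lower without overlap in the same way. SNORA20 fell by 1.78 ± 0.41 on the log2 scale (edgeR adjusted p = 0.0222) and SNORA29 by 1.98 ± 0.47 (edgeR adjusted p = 0.0263), where 1.51% of genes were called lower. The host TCP1 was at -0.36 ± 0.23 in the same comparison. The difference between host and snoRNA was not tested. Both snoRNA genes lie inside the host on its strand, and the libraries were of total RNA. Whether their reads came from the snoRNAs or from unspliced TCP1 RNA was not tested. The counts are low, and the call for SNORA20 was lost without MG132 replicate 2 (edgeR adjusted p = 0.0983) and without MG132 plus alpha-amanitin replicates 1, 2 or 3 (0.111, 0.0645 and 0.0566). That for SNORA29 was lost without MG132 replicate 2 (0.0964) and without MG132 plus alpha-amanitin replicates 1 or 2 (0.114 and 0.0994). Both calls were also lost when only these 2 groups were fitted and without the 4 skewed libraries. SNORA22B and SNORA15, inside CCT6A, were not called, at -0.94 ± 0.36 and -0.61 ± 0.55, nor was AF129075.1, a sense-intronic transcript in CCT8, at -0.39 ± 0.30.

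**Figure D5:**
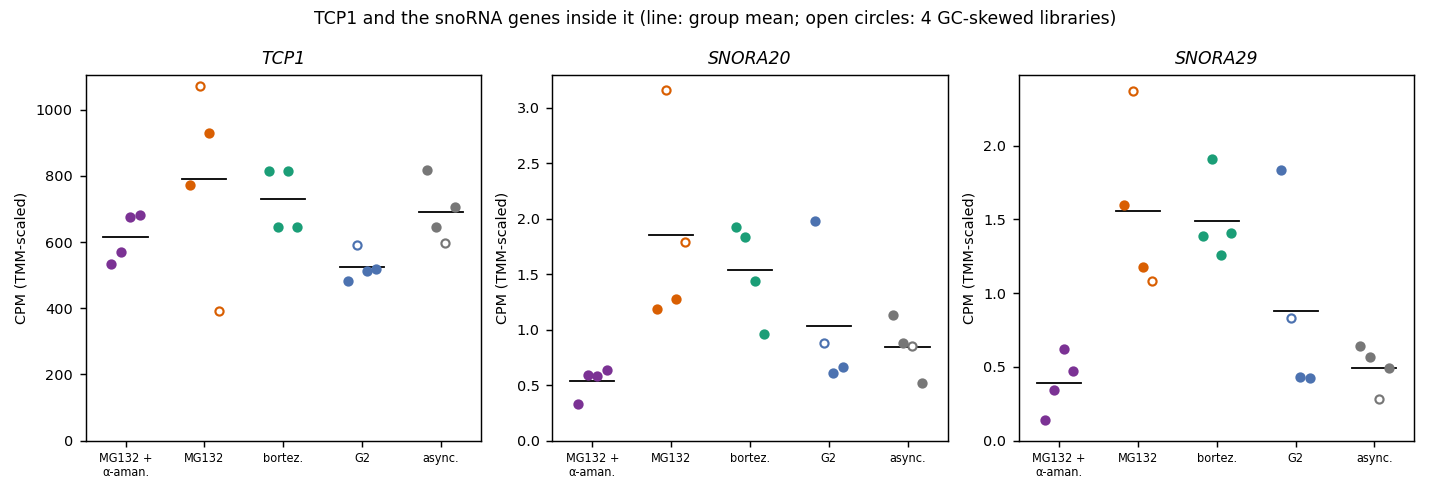
TMM-scaled CPM of TCP1 and of the snoRNA genes SNORA20 and SNORA29 inside it, by group, with lines at group means and open circles for the 4 skewed libraries. For both snoRNAs every MG132 plus alpha-amanitin library lies below every MG132 library, whereas TCP1 overlaps through MG132 replicate 4.

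The HSPE1 values are the least certain of the 10. HSPE1 shares 192 exon bases with the read-through gene HSPE1-MOB4, whose counts came to 65.0% of those of HSPE1. The remaining 698 of the 890 exon bases of HSPE1-MOB4 are shared with MOB4, whose counts came to 16.5% of those of HSPE1. HSPE1-MOB4 thus has no exon base of its own and is no independent reading. HSPE1 also shares 281 exon bases with HSPD1 on the opposite strand. The libraries were stranded per the labels' protocols, but whether counting used strand is not given in the sources used here. HSPE1-MOB4 averaged 93.8 ± 15.7 CPM with MG132 plus alpha-amanitin and 145 ± 56.0 CPM with MG132 (SD, n = 4 each), a log2 fold change of -0.63 ± 0.28 (edgeR adjusted p = 0.356), close to that of HSPE1. Rows named as pseudogenes of the members held 2.07% as many counts as CCT6A, through CCT6P1 and CCT6P3, 0.70% as many as HSPE1, 0.219% as many as HSPD1, and under 0.03% for each other member.

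Genes that work with the chaperonins were followed by 5 lists. The prefoldin and co-factor genes, which deliver substrates to TRiC, had 12 of 13 tested and none called in any comparison, and the PFDN6 subunit had the smallest p in MG132 against G2 at -0.51 ± 0.24 (edgeR adjusted p = 0.415). The mitochondrial chaperones and proteases (18 tested) and the mitochondrial import genes (13 tested) had none called either, nor did the 4 tested chaperonin-like paralogs. Their median log2 fold changes in MG132 against G2 were -0.03, -0.03 and -0.00078, beside -0.03 over all genes. In MG132 plus alpha-amanitin against G2 the import genes had a median of -0.30 and the prefoldin list one of -0.24, beside -0.004 over all genes. Of the 21 actin, tubulin, WD40 and other substrate genes, 1 rose in G2 against asynchronous and 1 fell in MG132 plus alpha-amanitin against G2. TUBA1A, an alpha-tubulin gene, averaged 81.4 ± 49.5 CPM in G2 cells and 16.9 ± 5.70 CPM in asynchronous cells (SD, n = 4 each), a log2 fold change of 2.27 ± 0.44 (edgeR adjusted p = 0.00946), where 1.95% of genes were called higher. That call was lost when only these 2 groups were fitted (edgeR adjusted p = 0.0675). TUBB4B, a beta-tubulin gene, averaged 496 ± 96.5 CPM with MG132 plus alpha-amanitin and 924 ± 184 CPM in G2 cells (SD, n = 4 each), a log2 fold change of -0.90 ± 0.21 (edgeR adjusted p = 0.0187), where 2.32% of genes were called lower. It was no longer called without G2 replicates 1 or 2 (edgeR adjusted p = 0.0771 and 0.0723) or without MG132 plus alpha-amanitin replicates 1, 2 or 4 (0.0922, 0.0776 and 0.0543), nor with the sample-code letter as a block (0.186). Tubulin genes have near-identical copies, and how reads with several alignments were counted is not given in the sources used here.

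The genes whose levels most closely followed the mean of either set of chaperonin genes over the 20 libraries were sought among 9670 protein-coding genes. Their log2 CPM averaged at least 3. The members behind these means did not all move together over the 20 libraries. Pairs of TRiC subunits had a median Pearson correlation of 0.56 and a lowest one of -0.46 over the 20 libraries, and HSPD1 with HSPE1 had 0.32. Over the 16 libraries without the skewed ones, the TRiC pairs had a median of 0.74 and a lowest of 0.49. HSPD1 with HSPE1 had 0.44 there. With the mean of the 8 TRiC subunits, PPP2CA, a catalytic subunit of protein phosphatase 2A, had a Pearson correlation of 0.97, BTG3 of 0.93, PSMC2, a proteasome ATPase subunit, of 0.92 and COPS8, a COP9 signalosome subunit, of 0.92. With the mean of HSPD1 and HSPE1 the closest were PSMC2 at 0.97, BRIX1 at 0.96, EXOSC9 at 0.96, UBE2D3 at 0.95 and RPF2 at 0.95. All 9 values are descriptions over libraries that differ in depth and GC slope, and the part of these differences in the correlations was not tested. The transcripts of these genes had 38.8% to 44.2% GC. Without the skewed libraries the correlations were 0.87 to 0.96 over 16 libraries, which are among the 20 that chose these genes.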

How the data were processed

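Stranded total RNA libraries without ribosomal RNA were prepared from TRIzol-extracted, DNase-treated RNA, per the labels' protocols. What the authors deposited is 1 table of unnormalised whole-number counts over 39918 genes and 1174 repeat rows, and all 20 of its columns were matched to samples by name (0 left out). Per the submitters' processing notes, hg38 was the build and FastQC, STAR and cutadapt 1.18 were used, with no role stated. Not given in the sources used here are the counting tool, its strand setting and its rule for multi-mapped reads. Symbols and positions came from GENCODE release 29.

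A single edgeR 4.0.16 model (R 4.3.3) held genes and repeats (filterByExpr, TMM scaling, robust glmQLFit and glmQLFTest) over all 20 libraries with 1 mean per group and 15 residual degrees of freedom, with p-values adjusted by the Benjamini-Hochberg method over 18959 genes. The biological coefficient of variation was 33.3%. Standard errors were derived from the F statistic of that test. CPM and ratios were computed here from the deposited counts. Alternatives were scaling to mitochondrial mRNAs, to total library size or by RLE, no filter, a filter of CPM of at least 1 in 4 samples, DESeq2 1.42.0, limma-voom 3.58.1, the compared groups alone, genes alone, a replicate block, a block for an undocumented letter in the sample codes, a loess offset for GC content and length (known for 98.6% of tested genes), a minimum of 1.5-fold, omission of the 4 GC-skewed libraries, and leaving out each library. The fitting code was tested on simulated data. Replicates of a group differed by far more than sampling noise, the closest pair having a chi-square of 9.12 per degree of freedom, and no library was taken as a repeat of another.

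The members, lists, alternatives and the 4 omitted libraries were chosen with earlier results of these data known. The genes named were all 10 members, the called genes of the lists and those of smallest p, rows inside or overlapping members, and the 5 genes most like each mean, of which 1 is not reported here.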

Additional observations from a re-analysis of the deposited data

Results flagged for a closer look

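In 55 sets of 4 libraries (each of the 10 genes and the TRiC to HSPD1 and HSPE1 ratio in each group), 6 had 1 library farther from the rest than Dixon's 95% limit. Chance gives about 1 in 20. HSPE1 stood high in asynchronous replicate 1 at 515 CPM. In G2 replicate 2, CCT5 stood high at 782 CPM and CCT6A low at 396 CPM. The ratio of summed TRiC to summed HSPD1 and HSPE1 levels stood high in MG132 replicate 4 at 8.24, in MG132 plus alpha-amanitin replicate 4 at 3.62 and in asynchronous replicate 3 at 6.20. Of these libraries, G2 replicate 2, MG132 replicate 4 and asynchronous replicate 3 are the ones with positive GC slopes of 0.30 to 0.62 log2 units per 10 percentage points. MG132 plus alpha-amanitin replicate 4 had the next highest slope at 0.17, and asynchronous replicate 1 had 0.01.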

How the results depend on the processing

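Of 132 counts of called members under the alternatives, 131 gave 0 of 10 as with all libraries. The exception was 2 of 10 in MG132 against G2 without MG132 replicate 4 (TCP1 and HSPD1). The minimum of 1.5-fold was set on the fit with all libraries, which called 0 members, so its counts and single values could not differ. Leaving out 1 library gave 0 to 2 called members in MG132 against G2 and 0 in the other 5 comparisons. Of 1320 single values, 2 gained a call, none was called with the opposite sign, and 85 uncalled values changed sign. DESeq2 and limma-voom called 0 members, with unadjusted p under 0.05 by both for TCP1 in MG132 against G2, HSPE1 in MG132 plus alpha-amanitin against MG132 and CCT5 in G2 against asynchronous, and by DESeq2 alone for TCP1 in bortezomib against G2 and HSPE1 in G2 against asynchronous. The offset for GC content and length also gave 0 calls. With the replicate number as a block 0 members were called in each comparison, and 7 of 24 same-number pairs of libraries had a correlation of deviations over 0.1, in no comparison all 4, so that the numbers were not taken to pair the samples. In MG132 plus alpha-amanitin against MG132, however, all 4 correlations were positive (0.59, 0.06, 0.11 and 0.56) and libraries 1, 2 and 4 share a sample-code letter, so that a pairing there cannot be settled. In that comparison SNORA29 was not called with the block (adjusted p = 0.0652). Both snoRNAs in TCP1 lost their call when only MG132 plus alpha-amanitin and MG132 were fitted (adjusted p = 0.0679 for SNORA20 and 0.0782 for SNORA29) and without the 4 GC-skewed libraries (0.22 and 0.104). In MG132 against G2 the members' 95% intervals spanned 0.77 log2 units for CCT5 to 1.79 for HSPD1.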

Other observations

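Without the 4 GC-skewed libraries, several genes of the chaperonin-related lists were called that were not called with all 20. GRPEL2, a nucleotide exchange factor of mitochondrial HSP70, averaged 121 ± 57.8 CPM with MG132 and 70.6 ± 9.25 CPM in G2 over all libraries (SD, n = 4 each). It was called in MG132 against G2 at a log2 fold change of 0.99 (edgeR adjusted p = 0.0061, 1.64% of genes called) and not with all libraries (0.78, adjusted p = 0.309). It was also called in bortezomib against G2 at 0.67 (adjusted p = 0.0257, 2.12% of genes called) and, in the other direction, in MG132 plus alpha-amanitin against MG132 at -0.89 (adjusted p = 0.00594, 2.12% of genes called), comparisons that share libraries with the first. FZR1, a WD40-repeat activator of the anaphase-promoting complex, was called in G2 against asynchronous at 0.72 (adjusted p = 0.019), and against G2 it was called in bortezomib at -0.66 (adjusted p = 0.0282) and in MG132 plus alpha-amanitin at -0.63 (adjusted p = 0.0211), 3 comparisons that share the G2 libraries.

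The chaperonin-like paralogs BBS10 and BBS12, which help to assemble the BBSome of primary cilia, were called in MG132 plus alpha-amanitin against G2 in the same 16 libraries, at -1.28 (adjusted p = 0.0119) and -1.53 (adjusted p = 0.00129), where 4.4% of genes were called. With all libraries BBS12 averaged 1.15 ± 0.23 CPM with MG132 plus alpha-amanitin and 2.82 ± 1.01 CPM in G2 (SD, n = 4 each) and was not called (edgeR adjusted p = 0.0544). BBS12 was also called in bortezomib against G2 at -0.92 (adjusted p = 0.0432), which shares the G2 libraries. In G2 against asynchronous, where 4.37% of genes were called, PFDN2, a prefoldin subunit, was called at -0.88 (adjusted p = 0.0478), the prefoldin-like URI1 at -0.50 (adjusted p = 0.0484), the paralog MKKS at -0.74 (adjusted p = 0.00998) and the beta-tubulin gene TUBB2B at 0.92 (adjusted p = 0.036).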
